A study of Mus musculus with 4 samples.

Results

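The lipid droplet genes described here are 10 genes chosen by name: the perilipins *Plin2*, *Plin3*, *Plin4* and *Plin5*, the CIDE genes *Cidea*, *Cideb* and *Cidec*, the lipase gene *Pnpla2*, its inhibitor *G0s2*, and *Hsd17b13*. All 10 were found among the 35739 genes of the transcript abundance table, and 7 of them were among the 9581 genes tested, whose level averaged 1 TPM or more over the 4 libraries (TPM is a transcript's share of a library, corrected for its length). RNA-seq was performed on livers of wild-type (WT) mice, replicates 2 and 3, and of *Usp21* knockout (KO) mice, replicates 1 and 3 (below WT 2, WT 3, KO 1 and KO 3), to find genes that depend on *Usp21*, which encodes a deubiquitylating enzyme. The KO allele lacks exons 3 and 4 of *Usp21* in every tissue, and the Cre line used to delete them is not named in the sources used here. The allele was made in 129/Sv embryonic stem cells and bred onto C57BL/6, so that KO and WT littermates had a mixed B6 × 129/Sv background. The mice were 10 to 11 weeks old and fed a normal diet. Neither the time of day at sacrifice nor a fast is stated. In stained liver sections the paper found no fatty liver in KO mice, while serum free fatty acids and total cholesterol were raised. Lipid droplets themselves were not measured here. With 2 libraries per genotype, the p-values rest on the spread between these libraries only. In limma, the spread of each gene was in part borrowed from all tested genes (prior degrees of freedom 3.62).

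Liver cells store triglyceride and cholesteryl ester in lipid droplets, which have a core of neutral lipid and a single layer of phospholipid with proteins on it. Perilipins coat the droplet and control the access of lipases, and CIDE proteins help droplets exchange lipid and fuse. The first step of triglyceride breakdown is carried out by ATGL, the product of *Pnpla2*, which the protein encoded by *Abhd5* activates and the protein encoded by *G0s2* inhibits. In liver, *Plin2* is the main perilipin, *Plin5* is prominent in tissues that oxidize fatty acids, and several of these genes are known targets of the nuclear receptor PPAR-alpha.

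*Plin2* and *Plin5*, which encode droplet coat proteins, were about 2-fold higher in *Usp21* KO livers, with ratios of mean TPM of 2.16 and 2.23. In both cases the KO libraries lay above the WT libraries without overlap, as for 34.4% of all tested genes. *G0s2* had a ratio of 3.04, with 1 KO library far above the other 3. *Plin3*, *Cideb*, *Pnpla2* and *Hsd17b13* had ratios between 0.891 and 1.21. None of the 7 tested genes passed the threshold after adjustment over all genes, in limma with Benjamini-Hochberg adjustment, which 0.0835% of all tested genes passed. The smallest adjusted p was 0.402 (limma), for *Plin5*.

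Because *Plin2* and *Plin5* had the smallest p-values of the 10 genes, the stretch just upstream of each gene's transcription start is shown, from RefSeq (build GRCm38.p6, reverse strand, 5′ to 3′). Bases that GENCODE M21 places in an exon were left out. The *Plin2* stretch is chr4:86670061-86670309 and the *Plin5* stretch is chr17:56117597-56117798. Capitals mark matches to 2 motifs of nuclear receptors searched on both strands: a direct repeat of AGGTCA with 1 base between the copies, the form bound by PPAR with RXR, with up to 2 mismatches, and a single copy of AGGTCA without mismatch.
Plin2: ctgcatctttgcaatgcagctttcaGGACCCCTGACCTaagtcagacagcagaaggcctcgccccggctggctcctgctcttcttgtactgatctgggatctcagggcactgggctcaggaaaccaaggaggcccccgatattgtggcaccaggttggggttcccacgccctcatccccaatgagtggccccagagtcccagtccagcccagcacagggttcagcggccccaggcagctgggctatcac
Plin5: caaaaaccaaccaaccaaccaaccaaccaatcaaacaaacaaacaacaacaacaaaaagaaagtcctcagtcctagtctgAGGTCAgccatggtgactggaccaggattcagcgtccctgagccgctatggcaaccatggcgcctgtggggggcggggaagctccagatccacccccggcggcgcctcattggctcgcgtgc

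The match in *Plin2* lies on the opposite strand at positions -225 to -213 from the start, with 2 mismatches, and holds an exact single copy. RefSeq gives *Plin5* 2 starts: the window of the first, shown above, holds an exact single copy at positions -170 to -165, that of the second holds another at positions 14 to 19 after its start (not shown), and neither matches the repeat. For 9 of the 10 genes, *Cidea* being left out, 11 RefSeq promoter windows of 250 bases before to 50 bases after a start were read. Of these, 1 window, that of *Plin2*, had a match to the repeat, which 3.86% of all 32851 promoter windows hold. A single copy was found in 4 of the 11 windows (1 of *Plin2*, 2 of *Plin5* and 1 of *Hsd17b13*), compared with 16.3% of all windows. The window of *Plin2* also holds an E-box, CACGTG, across its start (7.15% of all windows), and that of *Cideb* a TATAAA (13.6%). A match is a description of the letters in these windows.

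*Plin2* (ENSMUSG00000028494, chromosome 4, 86648386 to 86670060 on GRCm38), the most abundant perilipin transcript, stood at 118.9 TPM (WT 2), 88.7 TPM (WT 3), 178.5 TPM (KO 1) and 270.6 TPM (KO 3). The lower KO library was well above the higher WT library. On the log2(TPM + 1) scale, on which all fold changes below are given, limma gave 1.09 ± 0.27 (SE; 95% interval 0.43 to 1.75), with an adjusted p = 0.461 and an unadjusted p = 0.00740. KO replicate 3 was 0.60 above KO replicate 1 on that scale and WT replicate 3 was 0.42 below WT replicate 2, both smaller than the difference between genotypes. The difference lay between 0.79, without KO replicate 3, and 1.39, without KO replicate 1.

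*Plin5* (ENSMUSG00000011305, chromosome 17, 56111601 to 56117596), whose protein ties droplets to mitochondria and holds ATGL and its activator at the droplet surface, stood at 9.92 TPM (WT 2), 8.20 TPM (WT 3), 22.2 TPM (KO 1) and 18.1 TPM (KO 3). The replicates of each genotype lay close together, 0.25 apart in WT and 0.28 apart in KO on the log2 scale, and the genotypes were well apart. In limma it differed by 1.07 ± 0.22 (SE; 95% interval 0.54 to 1.61), with an adjusted p = 0.402 and an unadjusted p = 0.00304. Leaving out any single library gave 0.93 to 1.21. *Plin4* (ENSMUSG00000002831), which codes for a perilipin of adipocytes and muscle, lies 1797 bp from *Plin5* on the same strand. It was listed at 0 in WT, with 0.196 TPM in KO 1 and 0.441 TPM in KO 3, so no fold is given.

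*Plin3* (ENSMUSG00000024197, chromosome 17, 56277476 to 56292873), a perilipin that moves between the cytosol and droplets and is made in most tissues, stood at 11.005 TPM (WT 2), 9.19 TPM (WT 3), 12.1 TPM (KO 1) and 7.01 TPM (KO 3). The KO libraries lay on either side of the WT libraries. Its log2 fold change in limma was -0.11 ± 0.30 (SE; 95% interval -0.85 to 0.63, adjusted p = 0.903). The *Plin2* estimate of 1.09 lies outside this interval, but the *Plin2* interval of 0.43 to 1.75 overlaps it. The sign of the *Plin3* value turned when WT replicate 2 or KO replicate 3 was left out.

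**Figure D1:**
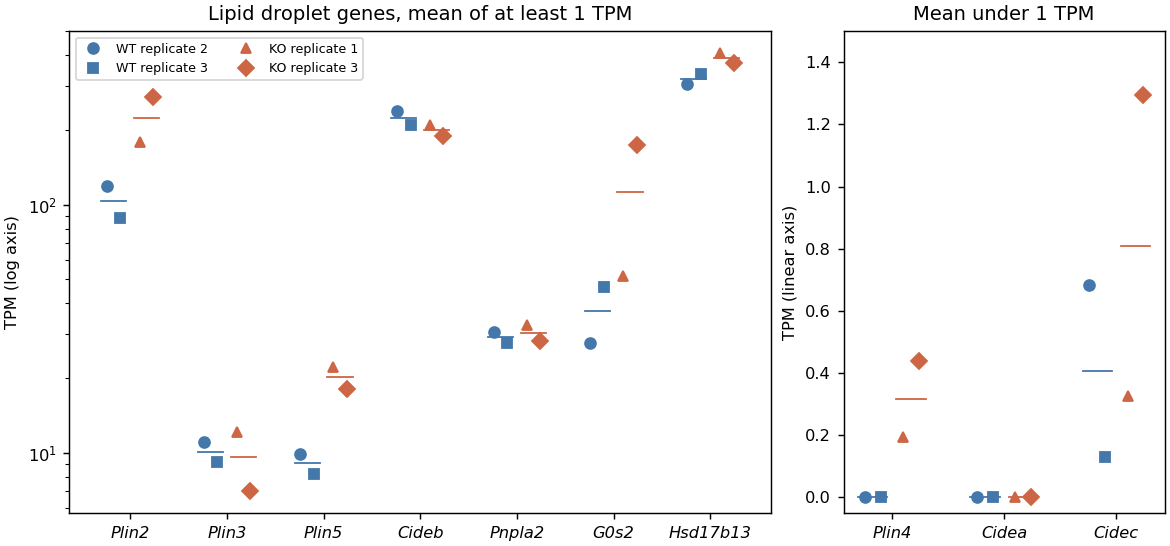
TPM of the 10 lipid droplet genes in each of the 4 libraries (symbols, WT blue and KO orange), with the mean of each genotype as a line, on a log axis for the 7 tested genes and on a linear axis for the 3 genes with a mean under 1 TPM. For *Plin2*, *Plin5*, *G0s2* and *Hsd17b13* the KO symbols all lie above the WT symbols, as for 34.4% of all tested genes. In *G0s2*, KO replicate 3 stands at 173.6 TPM, away from the other 3 libraries.

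The perilipins were also set against each other, since TPM is corrected for transcript length. Their TPM summed to 139.9 and 106.1 in WT and to 213.1 and 296.2 in KO. *Plin2* held 85.0% and 83.6% of this sum in WT and 83.8% and 91.4% in KO, with overlapping groups (KO minus WT 3.24 percentage points, p = 0.667, two-sided exact permutation test, which cannot go below 0.333 with 2 libraries against 2). The *Plin2* share was 0.56 percentage points lower in KO without KO replicate 3. The order of *Plin5* and *Plin3* differed, since *Plin5* was at 0.901 and 0.893 times the *Plin3* level in WT and at 1.83 and 2.59 times that level in KO. In WT the ranges of the *Plin3* and *Plin5* levels overlapped, and in KO they did not.

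*G0s2* (ENSMUSG00000009633, chromosome 1, 193272161 to 193273217), the ATGL inhibitor, stood at 27.8 TPM (WT 2), 46.5 TPM (WT 3), 51.8 TPM (KO 1) and 173.6 TPM (KO 3). KO replicate 1 was only slightly above WT replicate 3, while KO replicate 3 was far above the other libraries. Its log2 fold change in limma was 1.38 ± 0.58 (SE; 95% interval -0.07 to 2.82), with an adjusted p = 0.479 and an unadjusted p = 0.0581. Omitting KO replicate 3 gave 0.51, and omitting KO replicate 1 gave 2.24. The 2 KO replicates differed by 1.73 on the log2 scale, which is more than the difference between genotypes. *G0s2* lies on the same chromosome as *Usp21*, 22 Mb away, within the span of *Lamb3* on the opposite strand, and 0% of the 31-base stretches of its transcript occur in transcripts of other genes.

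*Pnpla2* (ENSMUSG00000025509, chromosome 7, 141455198 to 141460743), which encodes ATGL, stood at 30.6 TPM (WT 2), 27.8 TPM (WT 3), 32.6 TPM (KO 1) and 28.2 TPM (KO 3). The groups overlapped, and the log2 fold change of 0.057 ± 0.18 (SE; 95% interval -0.39 to 0.51, adjusted p = 0.919 in limma) had no stable sign, being -0.044 without KO replicate 1 and -0.073 with upper quartile scaling. The ratio of inhibitor to enzyme, *G0s2* to *Pnpla2*, was 0.908 and 1.67 in WT and 1.59 and 6.15 in KO. KO replicate 1 lay within the WT range (difference of log2 ratios 1.34, p = 0.667, two-sided exact permutation test). Without KO replicate 3 that difference was 0.36, and without KO replicate 1 it was 2.32.

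**Figure D2:**
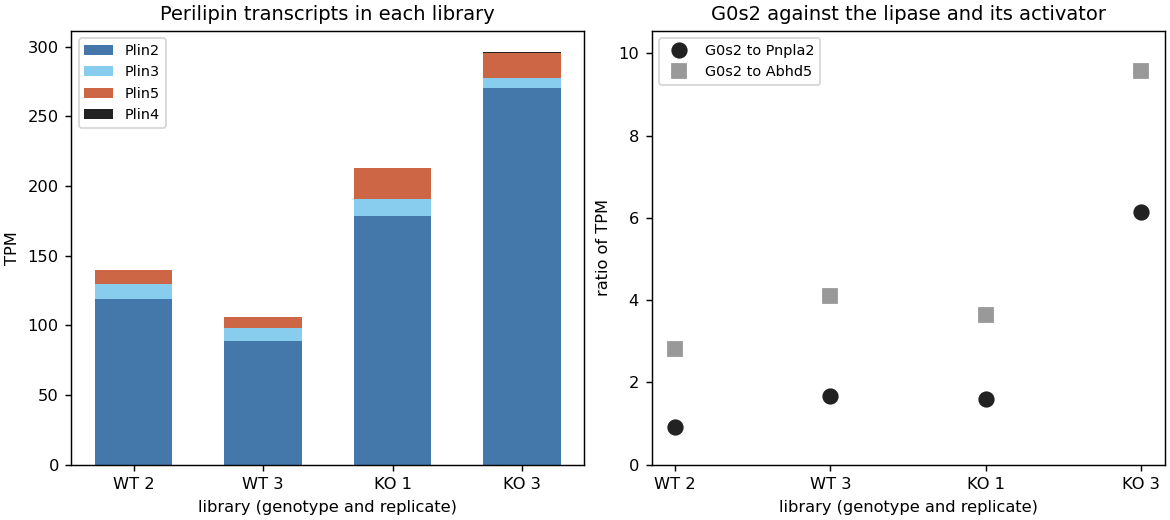
Left, stacked bars of the TPM of *Plin2*, *Plin3*, *Plin5* and *Plin4* in each library, from 106.1 TPM in WT replicate 3 to 296.2 TPM in KO replicate 3. Right, the ratio of *G0s2* TPM to *Pnpla2* TPM (circles) and to *Abhd5* TPM (squares) in each library, where KO replicate 3 is highest and the other 3 libraries lie within 0.908 to 1.67 for *Pnpla2* and 2.80 to 4.09 for *Abhd5*.

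*Hsd17b13* (ENSMUSG00000034528, chromosome 5, 103955440 to 103977410), which encodes a hepatocyte enzyme of the lipid droplet surface, was the most abundant of the 10 genes. It stood at 306.1 TPM (WT 2), 337.5 TPM (WT 3), 408.4 TPM (KO 1) and 373.0 TPM (KO 3). The KO libraries lay above the WT libraries, as for 34.4% of all tested genes. Its log2 fold change was 0.28 ± 0.17 (SE; 95% interval -0.14 to 0.70, adjusted p = 0.557 in limma). It stayed between 0.21 and 0.35 with each library left out and was 0.15 with upper quartile scaling.

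*Cideb* (ENSMUSG00000022219, chromosome 14, 55754050 to 55758458), the CIDE gene of hepatocytes, which is needed to load lipid onto very low density lipoprotein, stood at 238.3 TPM (WT 2), 210.6 TPM (WT 3), 209.9 TPM (KO 1) and 190.1 TPM (KO 3). The KO values were the lower ones, KO replicate 1 by less than 1 TPM, and the log2 fold change was -0.16 ± 0.17 (SE; 95% interval -0.58 to 0.26, adjusted p = 0.722 in limma). Of the 31-base stretches of the *Cideb* transcripts, 72.8% also occur in transcripts of *Nop9*, which overlaps it on the opposite strand. *Nop9* reached at most 6.59 TPM, and whether salmon used strand is not stated, so the division of reads between the genes is uncertain.

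*Cidec* (ENSMUSG00000030278, chromosome 6, 113424634 to 113435760), which enlarges droplets in adipocytes and in fatty liver, stood at 0.684 TPM (WT 2), 0.129 TPM (WT 3), 0.325 TPM (KO 1) and 1.29 TPM (KO 3). The genotypes overlapped and the levels were too low to be tested with the other genes. Fitted without the filter, limma gave a log2 fold change of 0.34 ± 0.35 (SE, adjusted p = 0.757), or -0.058 when KO replicate 3 was omitted. *Cidea* (ENSMUSG00000024526), a CIDE gene of brown fat, was listed at 0 TPM in all 4 libraries.

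By level, the order in WT was *Hsd17b13*, *Cideb*, *Plin2*, *G0s2*, *Pnpla2*, *Plin3*, *Plin5* and *Cidec*, with *Plin4* and *Cidea* at 0. The ranges of *G0s2* and *Pnpla2* overlapped, as did those of *Plin3* and *Plin5*, and the other neighbours among the genes above 0 did not. In KO the order was *Hsd17b13*, *Plin2*, *Cideb*, *G0s2*, *Pnpla2*, *Plin5*, *Plin3*, *Cidec* and *Plin4*. There the ranges of *Plin2* and *Cideb* overlapped, as did those of *Cidec* and *Plin4*.

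Of the 7 tested genes, 5 had the higher mean in KO and 2 the higher mean in WT, and 66.7% of all tested genes were higher in KO, so this count does not set the 7 apart. Their median log2 fold change was 0.28, compared with 0.15 over all tested genes. All 7 had a mean of at least 1 TPM in each genotype. An unadjusted p under 0.05 in limma was found for 2 of the 7, *Plin2* and *Plin5*, both higher in KO, compared with 10.5% of all tested genes in either direction and 8.45% higher in KO. *Plin2*, *Plin5* and *G0s2* were at least 2-fold higher in KO (3 of 7 genes), compared with 2.59% of all tested genes. With libraries scaled to an equal upper quartile, the median over all genes moved from 0.15 to 0.04 and *Plin2* and *Plin5* came to 0.96 and 0.95, so that of the 7 only *G0s2* (1.25) was at least 2-fold higher. The count was also 1 without WT replicate 3 (*G0s2*, 1.74) and 1 without KO replicate 3 (*Plin5*, 1.21, with *G0s2* at 0.51). The genotypes did not overlap for 5 of the 7 genes, 4 of them higher in KO, compared with 45.3% and 34.4% of all tested genes. The 10 genes were chosen by name with earlier results known, and these counts are a description.

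**Figure D3:**
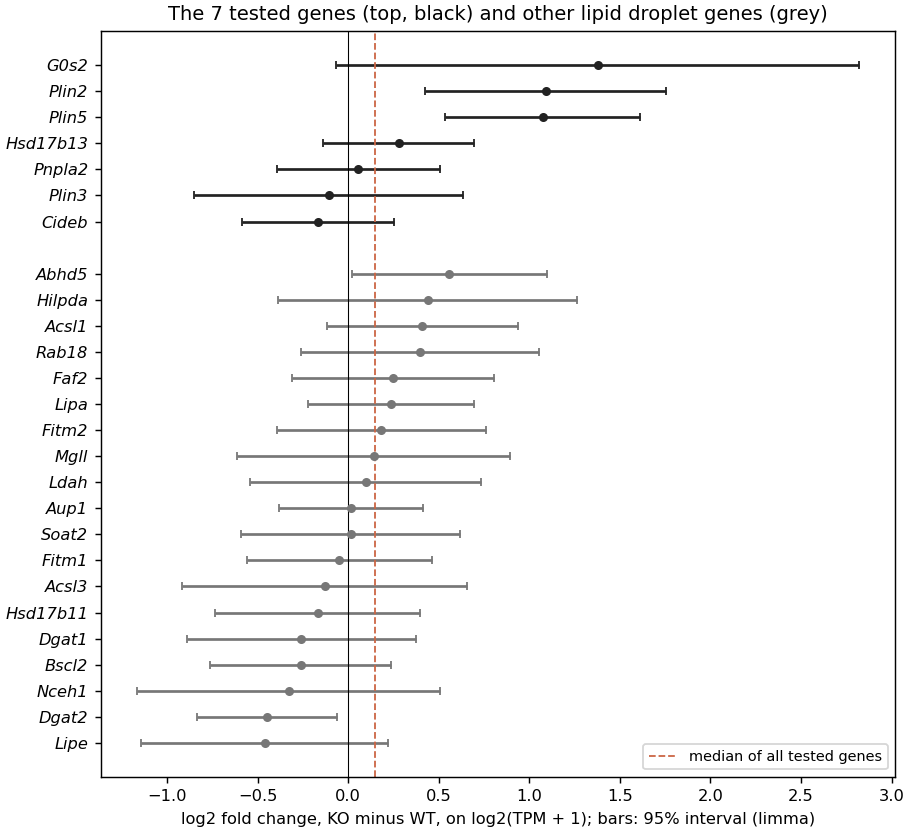
Log2 fold changes (KO minus WT on log2(TPM + 1)) with 95% intervals from limma for the 7 tested genes (black) and the 19 tested genes of a wider lipid droplet list (grey). The dashed line is the median of all tested genes, 0.15, and the intervals of *Plin2* and *Plin5* lie wholly above it.

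Without moderation of variances across genes, *Plin5* had an unadjusted p of 0.0289 and *Plin2* of 0.0961 in limma. Without WT replicate 3, they were 0.0256 and 0.0540. The unadjusted p of *G0s2* was 0.00508 without KO replicate 1, whose fit takes the spread of the single KO library from the WT libraries, and 0.248 without KO replicate 3.

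**Figure D4:**
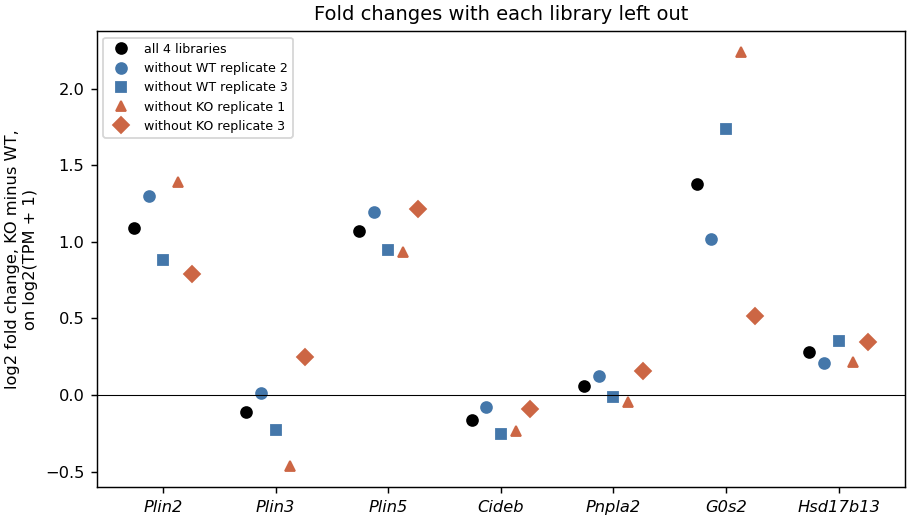
Log2 fold changes of the 7 tested genes with all 4 libraries (black) and with single libraries omitted (blue, a WT library left out; orange, a KO library left out). *Plin5* stays between 0.93 and 1.21, *G0s2* spans 0.51 to 2.24, and *Plin3* and *Pnpla2* lie on both sides of 0.

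A wider list of 22 other lipid droplet genes held 19 tested genes, of which 11 had the higher mean in KO and 8 in WT (median log2 fold change 0.015). None of the 19 had an adjusted p under 0.05 in limma, 1 was higher and 1 lower at an unadjusted p under 0.05, and none reached 2-fold. *Abhd5*, the ATGL activator, stood at 9.92 TPM (WT 2), 11.4 TPM (WT 3), 14.3 TPM (KO 1) and 18.1 TPM (KO 3), a log2 fold change of 0.56 ± 0.22 (SE; limma adjusted p = 0.472, unadjusted p = 0.0446). *Dgat2*, which makes triglyceride at the endoplasmic reticulum and at droplets, stood at 188.4 TPM (WT 2), 181.5 TPM (WT 3), 134.5 TPM (KO 1) and 136.1 TPM (KO 3), a log2 fold change of -0.45 ± 0.15 (SE; limma adjusted p = 0.464, unadjusted p = 0.0296). For both genes the genotypes did not overlap, as for 45.3% of all tested genes. With single libraries omitted, the unadjusted limma p was 0.0610 to 0.118 for *Dgat2* and 0.0397 to 0.185 for *Abhd5*, under 0.05 only for *Abhd5* without KO replicate 1. The other 17 genes had log2 fold changes from -0.46 (*Lipe*, hormone-sensitive lipase) to 0.44 (*Hilpda*, an ATGL inhibitor induced by hypoxia). *Plin1*, the perilipin of white fat, and *Pnpla3* were listed at 0 throughout. *Tmem159*, listed as *Ldaf1*, was under the filter with a mean of 0.972 TPM.

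In bulk liver, a change in the share of a cell type and a change in RNA per cell cannot be told apart. The hepatocyte markers *Alb*, *Apoa1*, *Ttr*, *Serpina1a*, *Cps1* and *Cyp2e1* were abundant in every library, with 50018 to 59910 TPM in sum in KO and 57611 to 73962 TPM in WT. *Alb* (32024 to 43181 TPM in WT, 27475 to 31006 TPM in KO) and *Cyp2e1* (3150 to 4802 and 3041 to 3106 TPM) were lower in KO without overlap. The other hepatocyte markers overlapped. Of 6 white adipocyte markers, 3 were at 0 in all libraries (*Lep*, *Retn* and *Plin1*), and the 6 summed to 0.303 to 0.627 TPM in WT and 0.539 to 0.950 TPM in KO. *Ucp1* and *Dio2* of brown fat were at 0 everywhere, and the third brown fat marker, *Cox7a1*, ranged from 2.69 to 3.00 TPM in WT and from 4.41 to 5.50 TPM in KO. Stellate cells, which also store lipid in droplets, had 6 markers that summed to 72.8 TPM (WT 2), 53.2 TPM (WT 3), 108.3 TPM (KO 1) and 82.7 TPM (KO 3), and 3 of the 6 were higher in KO without overlap, as 34.4% of all tested genes were. These were *Rgs5* (2.62 to 3.81 TPM in WT, 8.58 to 13.6 TPM in KO, limma unadjusted p = 0.00317, adjusted p = 0.405), *Dcn* (34.1 to 42.6 and 48.4 to 62.8 TPM) and *Reln* (4.52 to 7.02 and 7.74 to 10.3 TPM). That sum was therefore higher in the same libraries as *Plin2* and *Plin5*, and its part in those differences was not tested. The other 3 overlapped between genotypes: *Lrat* (1.24 to 2.02 TPM in WT, 1.96 to 2.09 TPM in KO), *Des* (0.872 to 1.64 and 1.22 to 1.23 TPM) and *Colec11* (9.88 to 15.7 and 14.7 to 18.4 TPM). Kupffer cell markers ranged in sum from 88.5 to 100.03 TPM in WT and from 51.6 to 135.0 TPM in KO, and sinusoidal endothelial markers from 44.5 to 59.6 TPM and from 50.03 to 68.1 TPM, both with overlap. Of the endothelial markers, only *Lyve1* (0.298 to 0.651 TPM in WT, 1.14 to 2.91 TPM in KO) was higher in KO without overlap. The sum of 4 red blood cell markers was 668.8 to 811.6 TPM in KO and 831.9 to 864.6 TPM in WT, and of the 4, *Hba-a1* and *Hbb-bt* were lower in KO without overlap, while *Hba-a2* and *Hbb-bs* overlapped.

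The targeted gene *Usp21* stood at 4.07 TPM (WT 2), 6.29 TPM (WT 3), 1.64 TPM (KO 1) and 2.93 TPM (KO 3). Its log2 fold change was -0.92 ± 0.33 (SE; limma adjusted p = 0.464, unadjusted p = 0.0336). Exons outside the deletion can still be counted, and their part in the KO values was not tested. A second table, of reads counted per gene with HTSeq, listed 8 of the 10 lipid droplet genes at 0 in all libraries, *Plin2*, *Plin5* and *Hsd17b13* among them. It assigned 102898 to 148164 reads per library to genes, which is not the depth behind the TPM. *Cideb* had 0 or 1 read, and *Cidec* 0 and 2 reads in WT and 3 and 5 reads in KO. This second table could therefore not be used to check the values above.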

How the data were processed

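Liver RNA of WT replicates 2 and 3 and *Usp21* KO replicates 1 and 3 was sequenced on an Illumina MiSeq. The authors estimated abundances with salmon on mm10 and deposited them per gene as TPM, which keep no record of depth. They also deposited HTSeq read counts scaled with TMM in edgeR (CPM), here treated as a signal. In the deposited signal, 100% of the values above 0 were whole multiples of 1 read (tolerance 0.02 reads), which gave 102898 to 148164 reads per library. These are only the reads that were assigned to genes there, and not the depth behind the TPM. The limit for a gene at 0 was set at 3 reads (20.0 to 27.7 CPM), which covers counting error only. Versions, annotation release and strand setting are not given in the sources used here. The log forms of both tables were not used.

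The 10 genes and all lists were chosen with earlier results of these data known. The 9581 genes averaging 1 TPM or more were fitted on log2(TPM + 1) with limma 3.58.1 in R 4.3.3 (eBayes with trend, prior degrees of freedom 3.62), two-sided, with Benjamini-Hochberg adjustment across all tested genes and no covariates. On this scale, fold changes of genes with low TPM are understated. The value of *Cidec*, under the filter, was taken from a fit of all genes above 0. The study's ANOVA in Partek was not rerun. Named genes are the 10 genes, *Usp21*, genes of the wider list and of the regulator list that had an unadjusted p under 0.05 or a 2-fold change (others as ranges, with the ends named), cell type markers, and the 5 genes most like the gene with the largest fold change. Genes of either list named beside these were chosen after their values were seen.

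Alternatives were pseudocounts of 0.1 and 5, no filter, a mean of at least 5 TPM, upper quartile scaling, equal totals, no moderation, the CPM values, edgeR 4.0.16 (quasi-likelihood) and DESeq2 1.42.0 on the recovered reads, and each library left out. Scripts were tested on simulated data. Of 35739 gene identifiers, 35126 were found in the table of gene names. Positions and the transcripts searched for shared 31-base stretches come from GENCODE M21 (GRCm38).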

Additional observations from a re-analysis of the deposited data

How the results depend on the processing

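No paired analysis was possible, because the sample labels do not record which mice shared a litter. None of the lipid droplet genes passed the adjusted threshold under any alternative. *Plin2*, *Plin5*, *G0s2* and *Hsd17b13* were higher in KO under all 11 alternatives on the TPM values. For these genes both KO libraries lay above both WT libraries, so omitting a library or changing the pseudocount could not turn the sign. The filters and the moderation leave the fold change itself unchanged. Only upper quartile scaling and equal totals could have turned it. The sign turned for *Plin3* (0.011 without WT replicate 2, and -0.47 to 0.25 over the libraries left out, 0.25 without KO replicate 3), *Pnpla2* (-0.073 with upper quartile scaling, -0.011 without WT replicate 3, -0.044 without KO replicate 1 and up to 0.16 over the libraries left out), *Cidec* (-0.058 without KO replicate 3 and up to 0.73 over the libraries left out, 0.86 with a pseudocount of 0.1, 2.84 on the CPM values, 1.79 in edgeR and 1.84 in DESeq2) and the *Plin2* share of perilipin TPM (-0.56 percentage points without KO replicate 3, and up to 7.03 without KO replicate 1). The *G0s2* to *Pnpla2* difference lay between 0.36 and 2.32 with each library left out. The CPM table could not give either ratio, since the genes are at 0 there. Over all genes, calls at an adjusted p of 0.05 (8 in limma) numbered 4 without the filter, 0 without moderation, 0 with any library left out (fewer samples), 1 on the CPM values, 1 in DESeq2 and 12 in edgeR. The number of the 7 genes with an unadjusted p under 0.05 in limma (2) was 1 without moderation. *Plin2* and *Plin5* are at 0 in the CPM table, so they could not be counted on the CPM values, in edgeR or in DESeq2. Neither *Cideb* nor *Cidec*, the genes fitted there, had an unadjusted p under 0.05. The number changed at least 2-fold (3) was 1 (*G0s2*) with upper quartile scaling. With single libraries left out it was 1 to 3, with *G0s2* alone without WT replicate 3 and *Plin5* alone without KO replicate 3. On the CPM values, in edgeR and in DESeq2 it was 1, which was *Cidec* and not among the 7 genes. The number without overlap (5) was 1 on the CPM values and the reads recovered from them. That was again *Cidec*, and only *Cideb* and *Cidec* are above 0 there. The median (0.28) was 0.15 with upper quartile scaling. For *Cideb* and *Cidec* alone, the median was 1.32 on the CPM values, 0.84 in edgeR and 0.78 in DESeq2. All CPM, edgeR and DESeq2 values of these genes rest on at most 1 read of *Cideb* and 5 reads of *Cidec* per library. They are too few to check the TPM values. Reads on a gene cannot be recovered from TPM, so the depth behind each value is unknown.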

Other observations

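Of 11 transcription regulators of lipid genes, all tested, 5 were higher and 6 lower in KO, where 66.7% of all tested genes were higher. None had an adjusted p under 0.05 in limma. *Srebf1*, which encodes the SREBP-1 activators of fatty acid synthesis, stood at 58.1 TPM (WT 2), 64.3 TPM (WT 3), 27.3 TPM (KO 1) and 20.7 TPM (KO 3), a log2 fold change of -1.32 ± 0.20 (SE; limma adjusted p = 0.242, unadjusted p = 0.000808). Omitting single libraries gave -1.51 to -1.13. *Foxo1*, a factor of the fasting response, stood at 3.55 TPM (WT 2), 4.95 TPM (WT 3), 6.47 TPM (KO 1) and 7.74 TPM (KO 3), a log2 fold change of 0.63 ± 0.25 (SE; limma adjusted p = 0.473, unadjusted p = 0.0491). *Ppara*, which encodes PPAR-alpha, ranged from 11.6 to 12.8 TPM in WT and from 13.2 to 13.9 TPM in KO (log2 fold change 0.15 ± 0.19, SE). The other genes of the list, apart from *Srebf1* and *Foxo1*, lay between -0.36 (*Esrra*) and 0.80 (*Ppargc1a*). *Ppargc1a* stood at 0.681 TPM (WT 2), 0.482 TPM (WT 3), 2.43 TPM (KO 1) and 1.19 TPM (KO 3). Its ratio of mean TPM was 3.11, which the log2(TPM + 1) scale understates at such low levels. Its mean in WT was 0.582 TPM, so it passed the filter only through KO. The paper reported it higher in KO by RNA-seq and RT-qPCR.

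*G0s2* had the largest log2 fold change of the 10 lipid droplet genes. Among 5821 other genes averaging 5 TPM or more, the 5 whose log2(TPM + 1) values, centred on each gene's own mean, lay closest to those of *G0s2* over the 4 libraries were *G6pc1*, *Ugt1a7c*, *Serpina7*, *Creld2* and *Igfbp1*, with root mean square distances of 0.26 to 0.37. *G6pc1*, glucose-6-phosphatase, stood at 22.4 TPM (WT 2), 31.6 TPM (WT 3), 56.4 TPM (KO 1) and 172.8 TPM (KO 3). *Igfbp1*, an insulin-repressed secreted protein, stood at 6.28 TPM (WT 2), 18.4 TPM (WT 3), 21.5 TPM (KO 1) and 42.3 TPM (KO 3). In the same order of libraries, *Ugt1a7c* stood at 4.14, 4.38, 7.97 and 20.2 TPM. *Serpina7* stood at 6.80, 11.4, 12.3 and 25.1 TPM, and *Creld2* at 19.2, 17.5, 20.1 and 71.6 TPM. These genes were picked for their likeness to *G0s2* in these libraries, so a high KO replicate 3 follows from the choice. The likeness rests on 4 libraries and is a description.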
